A study of Canis lupus familiaris with 9 samples.

Results

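Genes of heme turnover and iron storage were examined in skeletal muscle of 9 dogs. The 9 genes were BLVRA and BLVRB, HMOX1 and HMOX2, FTH1 and FTL, TFRC, ALAS1 and FECH. They were chosen by function, around BLVRA, which had one of the smallest p-values for the feeding comparison in earlier results of these arrays, so the difference of BLVRA between the groups is given as a description with no test. On the array, 18 probe sets (groups of short probes that together measure 1 transcript) carried 1 of these symbols as their only gene name, of 42924 probe sets that were not controls. Where a gene had several probe sets, the brightest on average stands for it and the others are given beside it.

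The dogs were intact female beagles, 4 years old. The ad libitum group, fed without restriction, held 5 dogs (numbers 2, 5, 6, 7 and 8), and the control group, fed to stay at its starting body weight, held 4 (numbers 1, 3, 4 and 9). Both groups ate the same commercial diet, and muscle was taken at 24 weeks after a night without food. Each dog gave 1 Affymetrix array, with GCRMA values read as log2, where a step of 1 is a doubling. No allele, transgene or drug is named for either group.

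Heme is the iron-bearing ring of myoglobin and the respiratory cytochromes, which skeletal muscle holds in large amounts. Its synthesis starts in the mitochondrion with ALAS1, the enzyme that sets the rate outside red cells, and ends there with FECH, which inserts the iron. Heme oxygenases (the inducible HMOX1 and the constitutive HMOX2) open the ring and release iron, carbon monoxide and biliverdin, and biliverdin reductases turn biliverdin into bilirubin. Iron enters cells through TFRC, the transferrin receptor, and is stored in ferritin, a shell of FTH1 and FTL subunits. Ferritin and TFRC are set largely at the level of translation and mRNA stability by iron regulatory proteins, and macrophages, which recycle the heme of red cells, are rich in ferritin and in HMOX1.

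With limma and Benjamini-Hochberg adjustment over 18394 tested probe sets, 0 of the 7 members given a test passed an adjusted p of 0.05, as did 0 probe sets of the whole array (0% called). At an unadjusted limma p under 0.05 the count was 1 of 7 (FTH1), where 5.91% of all tested probe sets had such a p. FTH1 had passed the filter on low values only through ad libitum dogs, as described below, so that count is no support for a difference. The groups did not overlap for 1 member, BLVRA, where 1.44% of tested probe sets showed this, and since BLVRA was picked for its difference nothing is read from it. The sign of the FECH and TFRC differences depended on the probe set, and that of ALAS1, BLVRB and FECH turned when single dogs were left out. The median standard error over all tested probe sets was 0.20 on the log2 scale, and the number of arrays limits the precision.

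**Figure D1:**
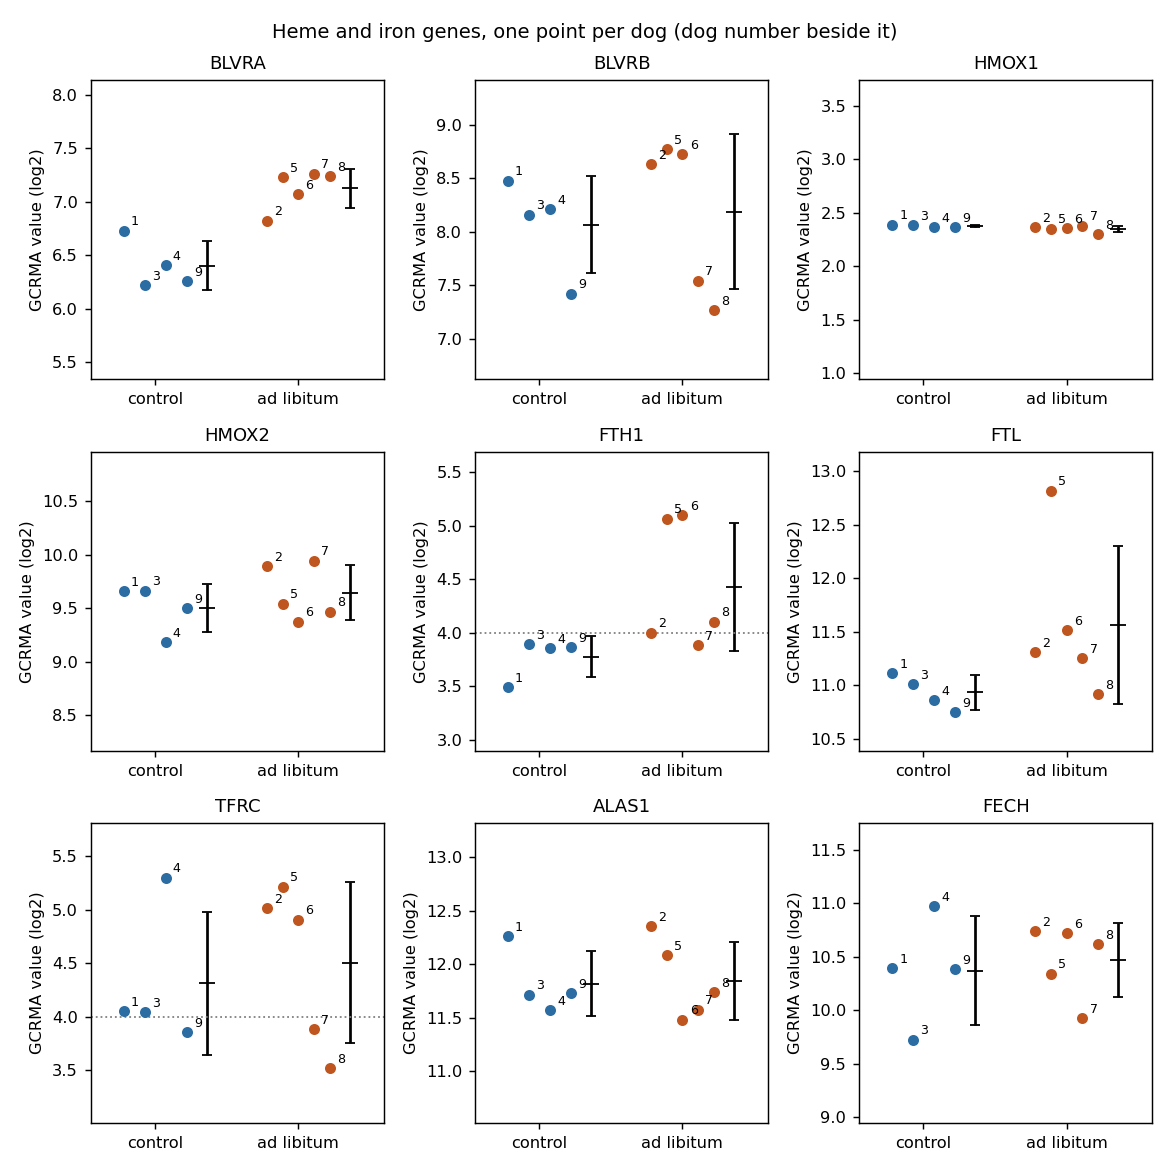
GCRMA values (log2 scale) of the 9 genes, each by its brightest probe set, in control dogs (blue) and ad libitum dogs (orange). Each point is 1 dog with its number, bars show the mean and SD of the group, every panel spans the same width in log2 units, and the dotted line marks the filter at log2 4. BLVRA is the gene whose groups stand apart, HMOX1 is flat below the filter, and in FTL dog 5 stands apart at 12.82.

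HMOX1, the inducible heme oxygenase, stood at 2.39, 2.38, 2.36 and 2.36 in control dogs 1, 3, 4 and 9 and at 2.37, 2.35, 2.36, 2.38 and 2.30 in ad libitum dogs 2, 5, 6, 7 and 8. It lay below log2 4 on every array and spanned 0.088 over the 9 dogs, so its single probe set gave no measurable signal in either group and was not tested. The genes most like it over the 9 dogs, by the root mean square difference of values centred on each gene's mean, were AKAP17A (0.0089), SLC9A5 (0.0097) and ARHGEF37 (0.012), out of 7534 genes. By this choice they are likewise genes whose values hardly varied.

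HMOX2, the constitutive heme oxygenase, was measured well above the filter. It stood at 9.66, 9.66, 9.18 and 9.50 in control dogs 1, 3, 4 and 9 and at 9.89, 9.54, 9.37, 9.95 and 9.47 in ad libitum dogs 2, 5, 6, 7 and 8. Ad libitum dogs 2 and 7 were above every control dog, and the other 3 lay inside the control range. The log2 difference was 0.14 (SE 0.17, 95% interval -0.23 to 0.51, adjusted p = 0.897, limma), with means of 9.64 ± 0.258 (SD, n = 5) and 9.50 ± 0.226 (SD, n = 4). A second probe set differed by 0.14 (SE 0.14) and had its highest value in the same dog, number 7. Its lowest dog was number 8, and it parted most from the first probe set at dog 4, by 0.26 after centring. On the first probe set, the difference was 0.035 without control dog 4, its lowest dog, and 0.066 or 0.079 without ad libitum dog 7 or 2.

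BLVRA, biliverdin reductase A, is the enzyme that makes the common form of bilirubin in the adult. Its values were 6.73, 6.22, 6.40 and 6.26 in control dogs 1, 3, 4 and 9 and 6.82, 7.23, 7.07, 7.26 and 7.24 in ad libitum dogs 2, 5, 6, 7 and 8. Every ad libitum dog lay above every control dog, with dog 2 and control dog 1 the nearest pair. Means were 7.13 ± 0.185 (SD, n = 5) and 6.40 ± 0.231 (SD, n = 4), a log2 difference of 0.72 (SE 0.15), or 1.65-fold. The second BLVRA probe set differed by 0.59 (SE 0.22), and there the groups overlapped: 4 of 5 ad libitum dogs lay above all controls, while dog 6, at 4.71, lay below control dogs 1 (4.84) and 4 (4.79). Dog 6 was also where the 2 probe sets disagreed most, by 0.58 after centring. With 1 dog left out the BLVRA difference ran from 0.66 to 0.83.

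The genes most like BLVRA over the 9 dogs, by the same measure, were GOLGB1, a Golgi membrane protein (0.18), MYO5A, a myosin that carries vesicles (0.20), and RPRD1A, which binds RNA polymerase II (0.22), against a standard deviation of BLVRA itself of 0.40. GOLGB1 stood at 4.22 to 4.60 in control dogs and 4.59 to 5.29 in ad libitum dogs, so its groups met at control dog 1 and ad libitum dog 2, where those of BLVRA also came nearest. As GOLGB1 was picked for its likeness to BLVRA over the same dogs, nothing is read from this.

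BLVRB, biliverdin reductase B, also known as flavin reductase, acts on a fetal form of biliverdin and is abundant in red cells. It stood at 8.48, 8.16, 8.21 and 7.42 in control dogs 1, 3, 4 and 9 and at 8.63, 8.77, 8.72, 7.54 and 7.27 in ad libitum dogs 2, 5, 6, 7 and 8. The values fell apart within both groups: dogs 7, 8 and 9 lay between 7.27 and 7.54 and the other 6 between 8.16 and 8.77. The log2 difference was 0.12 (SE 0.37, 95% interval -0.71 to 0.96, adjusted p = 0.963, limma), and it turned to -0.095, -0.025 or -0.012 without control dog 9 or ad libitum dog 5 or 6. The other BLVRB probe sets stayed between 1.88 and 1.97 on all arrays and carry no information. Of the 5 red cell markers on the array, HBE1, SLC4A1 and EPB42 were below the filter in every dog. ALAS2 ran from 2.61 in control dog 9 to 8.12 in control dog 1, while GYPC ran from 9.31 in control dog 1 to 10.03 in ad libitum dog 8, where ALAS2 was 2.91. The mean of ALAS2 and GYPC ran from 6.39 to 8.04 in ad libitum and from 6.19 to 8.72 in control dogs, and the part of red cells in the BLVRB values was not tested.

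**Figure D2:**
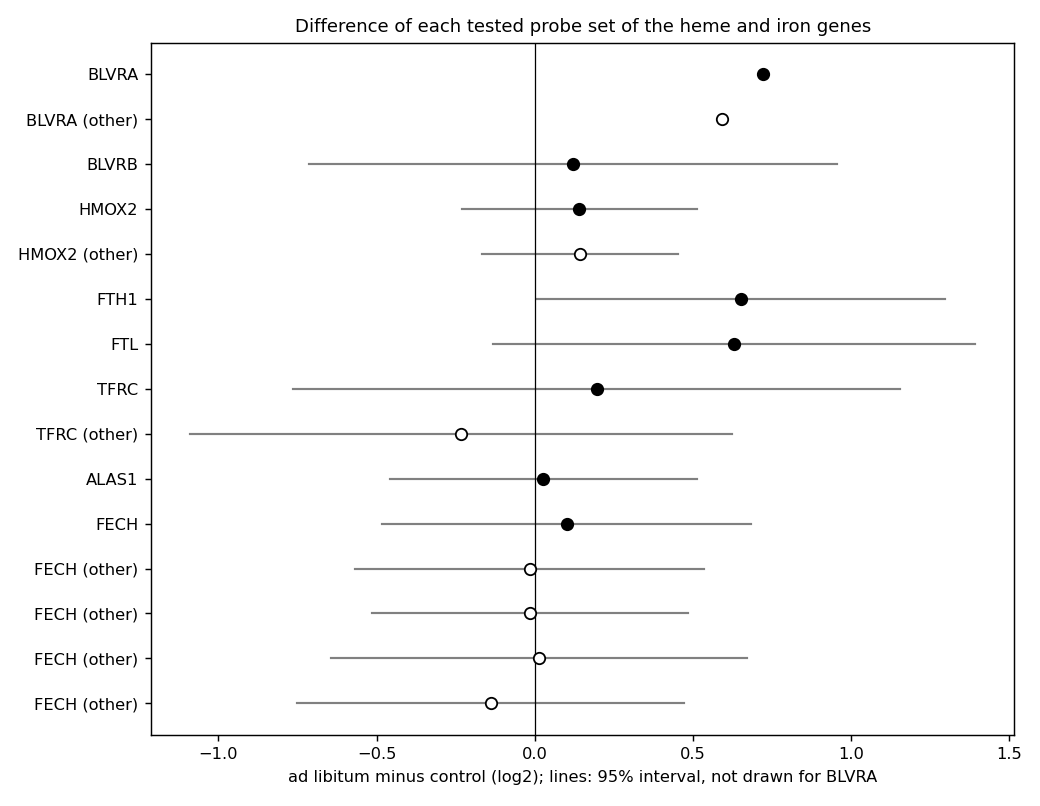
Log2 difference, ad libitum minus control, of the 15 tested probe sets of 8 members. Filled points are the brightest probe sets, open points the other probe sets of the same gene, and lines the 95% intervals of the limma fit, left out for BLVRA. The lines of BLVRB, HMOX2, FTL, TFRC, ALAS1 and FECH cross 0, and that of FTH1 starts at 0.0073. FTH1 was tested only because its ad libitum values were high, so its line is no support for a difference.

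FTL, the light chain of ferritin, was read by 1 probe set with no other to check it. It stood at 11.11, 11.01, 10.86 and 10.75 in control dogs 1, 3, 4 and 9 and at 11.31, 12.82, 11.52, 11.25 and 10.92 in ad libitum dogs 2, 5, 6, 7 and 8. Ad libitum dogs 2, 5, 6 and 7 lay above every control dog, dog 5 by far, and dog 8 lay inside the control range. Means were 11.6 ± 0.734 (SD, n = 5) and 10.9 ± 0.160 (SD, n = 4), a log2 difference of 0.63 (SE 0.34, 95% interval -0.13 to 1.39, adjusted p = 0.796, limma), or 1.55-fold. Without ad libitum dog 5 the difference was 0.32. A further 2 probe sets name FTL together with a second gene and were left out by the rule.

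FTH1, the heavy chain, which oxidises iron for storage, had 1 probe set near the filter. It stood at 3.49, 3.90, 3.86 and 3.87 in control dogs 1, 3, 4 and 9 and at 4.00, 5.07, 5.10, 3.88 and 4.10 in ad libitum dogs 2, 5, 6, 7 and 8. Dogs 5 and 6 lay more than a log2 step above every control dog and dog 7 lay inside the control range. The probe set passed the filter through 4 ad libitum arrays and 0 control arrays, with dog 2 at the limit, so it was tested only because ad libitum values were high. The log2 difference was 0.65 (SE 0.29, adjusted p = 0.796, limma), and with values below log2 4 raised to 4 it was 0.45. Leaving out ad libitum dog 2, 5, 6 or 8 took the probe set below the filter. FTL and FTH1 shared dogs 5 and 6 as their 2 highest dogs.

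TFRC, which takes up transferrin-bound iron, was also low. It stood at 4.05, 4.04, 5.30 and 3.85 in control dogs 1, 3, 4 and 9 and at 5.01, 5.22, 4.91, 3.88 and 3.52 in ad libitum dogs 2, 5, 6, 7 and 8. The highest and the lowest dog belonged to different groups, control dog 4 and ad libitum dog 8, and dogs 7, 8 and 9 were again the lowest 3, as for BLVRB. The log2 difference was 0.20 (SE 0.43, 95% interval -0.76 to 1.15, adjusted p = 0.946, limma). The second TFRC probe set differed by -0.23 (SE 0.38), the other way. Without control dog 4 the first probe set differed by 0.52, and without ad libitum dog 5 by 0.019. Both probe sets put control dog 4 highest, but the lowest was dog 8 on the first and dog 7 on the second. After centring they disagreed by at most 0.34 in 1 dog. Their root mean square difference was 0.25, against a standard deviation over dogs of 0.64 for the first. The second was above the filter on 3 ad libitum arrays and 1 control array, with values down to 3.04.

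The genes most like TFRC over the 9 dogs were INSIG1, a regulator of cholesterol synthesis (0.30), AHNAK, a large scaffold protein (0.31), and GFPT2, of the hexosamine pathway (0.33), against a standard deviation of TFRC of 0.64. Ad libitum dog 8, the lowest for TFRC, was also the lowest for INSIG1 (5.68), AHNAK (6.86) and GFPT2 (3.97). These genes were picked for their likeness to TFRC over the same dogs, so nothing is read from the shared dog.

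**Figure D3:**
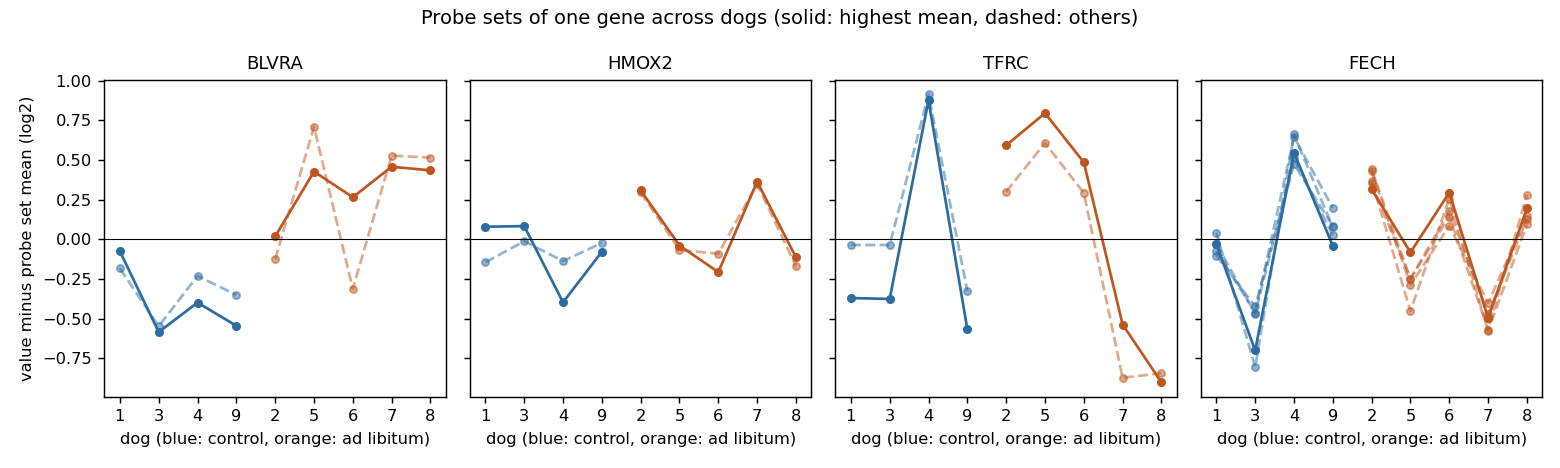
Values of each tested probe set minus its own mean (log2) by dog, for the 4 members with more than 1 tested probe set, with control dogs in blue and ad libitum dogs in orange. Solid lines are the brightest probe sets and dashed lines the others of the same gene. The 5 FECH probe sets follow each other closely, with control dog 4 highest on each, and the BLVRA pair parts at dog 6.

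The enzymes at the ends of heme synthesis had differences near 0. ALAS1 stood at 12.26, 11.71, 11.57 and 11.73 in control dogs 1, 3, 4 and 9 and at 12.35, 12.08, 11.48, 11.57 and 11.73 in ad libitum dogs 2, 5, 6, 7 and 8. The highest values were those of ad libitum dog 2 and control dog 1, so the groups covered almost the same range. The log2 difference was 0.028 (SE 0.22, 95% interval -0.46 to 0.51, adjusted p = 0.989, limma), and it ran from -0.099 without ad libitum dog 2 to 0.18 without control dog 1.

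FECH, ferrochelatase, had 5 probe sets, all tested. By the brightest it stood at 10.40, 9.72, 10.97 and 10.39 in control dogs 1, 3, 4 and 9 and at 10.74, 10.34, 10.72, 9.93 and 10.62 in ad libitum dogs 2, 5, 6, 7 and 8. The control group held both the highest dog, number 4, and the lowest, number 3, and no ad libitum dog left the control range. The log2 difference was 0.10 (SE 0.26, 95% interval -0.48 to 0.69, adjusted p = 0.953, limma), and the other 4 probe sets gave -0.14, -0.016, -0.014 and 0.012. The first probe set ran from -0.11 without control dog 3 to 0.30 without control dog 4. Dog 4 was highest on all 5 probe sets, and the root mean square difference between the first and any other was 0.11 to 0.18 after centring, against a standard deviation over dogs of 0.38. The spread between dogs was thus shared by the probe sets and was larger than the difference between the groups.

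Macrophage markers were read beside the members. In these pieces of tissue, more macrophages and more RNA of these genes per cell cannot be told apart. The 8 markers that passed the filter all had higher means in ad libitum dogs, with a median log2 difference of 1.08, and 0 passed the adjusted limma test. The mean of the markers ran from 5.00 to 8.01 in ad libitum and from 4.90 to 5.66 in control dogs. Of the 15 markers listed, CD68, CSF1R, TYROBP, AIF1, PTPRC, FCER1G and ITGAM did not pass the filter, although CD68, CSF1R and TYROBP reached 5.89, 6.79 and 7.13 in dog 5. CD163, the receptor by which macrophages take up haemoglobin bound to haptoglobin, stood at 3.40 to 4.06 in control dogs and at 5.50, 6.24, 6.48, 3.15 and 4.86 in ad libitum dogs 2, 5, 6, 7 and 8.

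Each tested member was set against the mean of the 7 measured macrophage markers other than CD163 over the 9 dogs, which made 8 relations. FTL had a Pearson r of 0.913 (exact permutation p = 0.00393, adjusted p = 0.0314) and a Spearman rho of 0.65 (exact permutation p = 0.0666, adjusted p = 0.203). Without dogs 5 and 6, farthest from the median of the markers, r was 0.404 over 7 dogs, so the relation rests on those dogs. Its adjusted p also missed 0.05 without ad libitum dog 2, 5 or 6 or control dog 9 alone, at r = 0.918, 0.685, 0.920 and 0.906. For FTH1, which passed the filter only through ad libitum dogs, r was 0.816 and rho 0.633, and without dogs 5 and 6 r was 0.122, given as a description with no test. BLVRA, picked for its difference between the groups, had r = 0.570 and rho = 0.433, likewise given as a description with no test. The adjustment ran over all 8 relations, FTH1 and BLVRA included. No other member passed. BLVRB had r = 0.635 and rho = 0.683 (exact permutation adjusted p = 0.143 and 0.203), and TFRC r = 0.584 and rho = 0.45 (0.155 and 0.333). For ALAS1, FECH and HMOX2 r was 0.364, 0.287 and -0.127 and rho 0.3, 0.467 and -0.317 (exact permutation adjusted p = 0.465, 0.522 and 0.746 for r and 0.437, 0.333 and 0.437 for rho). Without dogs 5 and 6, r was 0.392 for BLVRB, 0.276 for TFRC, 0.421 for BLVRA, 0.773 for ALAS1, 0.647 for FECH and 0.148 for HMOX2. The adjusted p of r fell below 0.05 for TFRC without control dog 4 (r = 0.799). For BLVRA r was 0.790 without ad libitum dog 7. Both groups have fewer than 6 dogs, too few for values within a group, and the pooled values carry the difference between the groups with them.

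With that mean of 7 macrophage markers as a covariate in limma, the FTL difference was 0.018 (SE 0.23) in place of 0.63 and the FTH1 difference 0.23 (SE 0.27) in place of 0.65. The BLVRA difference was 0.68 in place of 0.72, given as a description because BLVRA was picked for its difference. TFRC and BLVRB turned to -0.35 and -0.42. The macrophage mean ran from 5.26 to 8.27 in ad libitum dogs, highest in dogs 5 and 6, and from 5.12 to 5.89 in control dogs. The part of the covariate and that of feeding thus cannot be told apart in these fits. With the adipocyte mean in place of the macrophage mean, BLVRA differed by 0.74, FTL by 0.44, FTH1 by 0.53 and BLVRB by -0.30. Adipocyte markers ran from 7.74 to 9.93 in ad libitum and from 6.96 to 8.87 in control dogs, with all 10 higher on average, and fibroblast markers from 8.22 to 11.9 and from 7.92 to 9.18, with all 8 higher. The part of fibroblasts in the members' values was not tested.

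**Figure D4:**
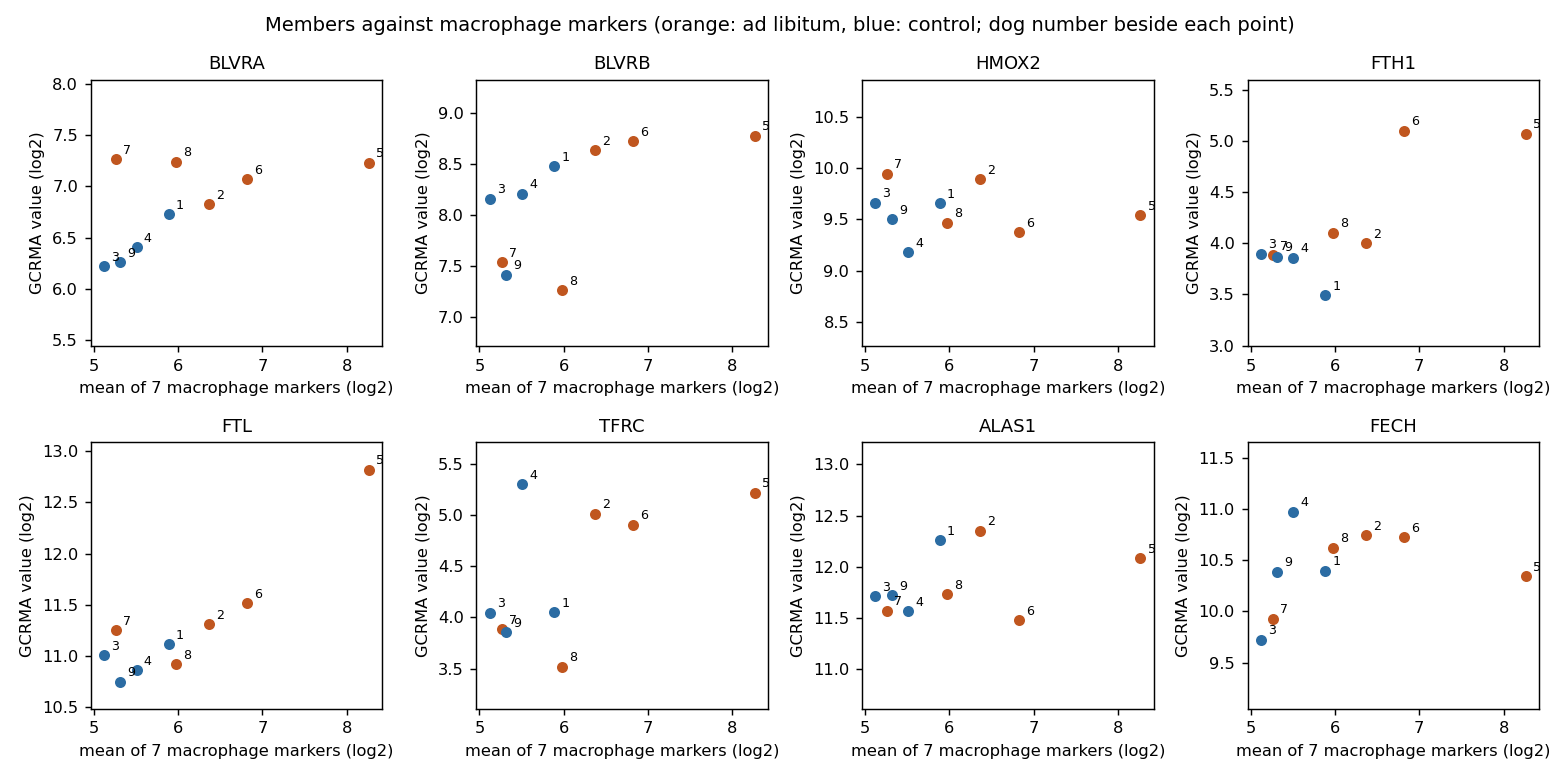
GCRMA value (log2) of each tested member against the mean of 7 macrophage markers (log2), with 1 point per dog, numbered, ad libitum in orange and control in blue. Dog 5 lies far to the right, at 8.27 for the markers, and is the highest dog for FTL and BLVRB.

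The rest of the pathway was read from lists of its genes, the 9 members included, with 0 genes past an adjusted p of 0.05 in either direction in any of the 7 lists (limma). Of all tested probe sets, 48.4% had higher means in ad libitum dogs. In heme synthesis, 11 of 14 genes were tested, 4 with higher and 7 with lower means. The median log2 difference of this list was -0.11, against -0.0082 for all tested probe sets. Leaving out control dog 1 gave a median of 0.084, and leaving out ad libitum dog 8 gave 0.055. SLC25A38, the carrier that brings glycine into mitochondria for the first step, differed by -0.61 (SE 0.21, adjusted p = 0.796, limma) and stood at 7.21 to 8.14 in ad libitum and 7.89 to 8.37 in control dogs. UROS and UROD, enzymes of the middle of the pathway, differed by 0.10 and 0.14, and CLPX, a mitochondrial unfoldase that acts on the first enzyme, by -0.28.

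Heme transport and binding had 10 of 15 genes tested, 8 with higher and 2 with lower means, and a median difference of 0.34. CD163 differed by 1.42 (SE 0.60) and PGRMC1, a membrane protein that binds heme, by 0.55 (SE 0.33), both without passing (adjusted p = 0.796 and 0.799, limma). ABCB6, a porphyrin transporter, differed by 0.10 and HEBP1, a heme-binding protein, by 0.13. ABCG2, an exporter of porphyrins, chosen after its values were seen for an unadjusted p under 0.05, differed by 0.60 (SE 0.27).

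The list of the heme oxygenase reaction and targets of NRF2 and BACH1, which switch HMOX1 on and off, had 12 of 18 genes tested, 9 with higher and 3 with lower means, and a median difference of 0.13. PIR, pirin, an iron-binding target of NRF2, stood at 8.42 to 9.33 in ad libitum and 8.29 to 8.58 in control dogs, a difference of 0.53 (SE 0.18, adjusted p = 0.796, limma). TXNRD1, thioredoxin reductase, another NRF2 target, chosen after its values were seen, differed by 0.59 (SE 0.24, adjusted p = 0.796, limma). NFE2L2, the gene of NRF2, differed by 0.046 and KEAP1, its repressor, by -0.24.

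Of the 23 symbols listed for iron uptake, reduction and export, where HFE2 and HJV name the same gene, 11 were tested. Means were higher for 7 and lower for 4 (median 0.046, or -0.045 without control dog 3). HJV, hemojuvelin, which muscle expresses strongly, differed by 0.057 (SE 0.26), SLC40A1, the iron exporter ferroportin, by -0.058 (SE 0.18), STEAP2, a metalloreductase, by 0.13 (SE 0.37) and SLC11A2, the divalent metal transporter, by -0.47 (SE 0.24, adjusted p = 0.796, limma). In the list of storage and iron regulatory proteins all 8 genes on the array were tested, 6 with higher means (median 0.15). FTH1 and FTL had the highest differences of the 8. FTH1 was tested only because its ad libitum values were high. Nothing is read from its rank or from its part in the count and median. ACO1, iron regulatory protein 1, differed by 0.34 (SE 0.21), NCOA4, which delivers ferritin for degradation, by -0.15 (SE 0.20), FBXL5, the iron-sensing ligase that removes iron regulatory protein 2, by 0.20 (SE 0.22), and PCBP2, an iron chaperone, by 0.091 (SE 0.10).

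Lists on the use of iron came last. Of the 21 symbols listed for mitochondrial iron and iron-sulfur clusters, where FDX2 and FDX1L name the same gene, 13 were tested. Means were higher for 3 and lower for 10, with differences between -0.20 and 0.33 (median -0.071, or 0.020 without control dog 4). ISCU, the assembly scaffold, differed by 0.048, HSCB, its co-chaperone, by 0.33, BOLA3 by -0.071 and CISD1 by -0.14. Of the list named heme proteins 8 of 14 were tested, with differences between -0.051 and 0.45 and a median of 0.065. That list also held UQCRFS1, an iron-sulfur protein, and CYB5R3, a flavoprotein, which carry no heme themselves. The highest difference, 0.45, was that of CYB5R3. MB, myoglobin, stood at 15.7 to 15.9 in all dogs, a difference of 0.072 (SE 0.087). CAT, catalase, differed by 0.18 (SE 0.12), UQCRFS1 and SDHC, subunits of respiratory complexes, by 0.082 and -0.032.

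**Figure D5:**
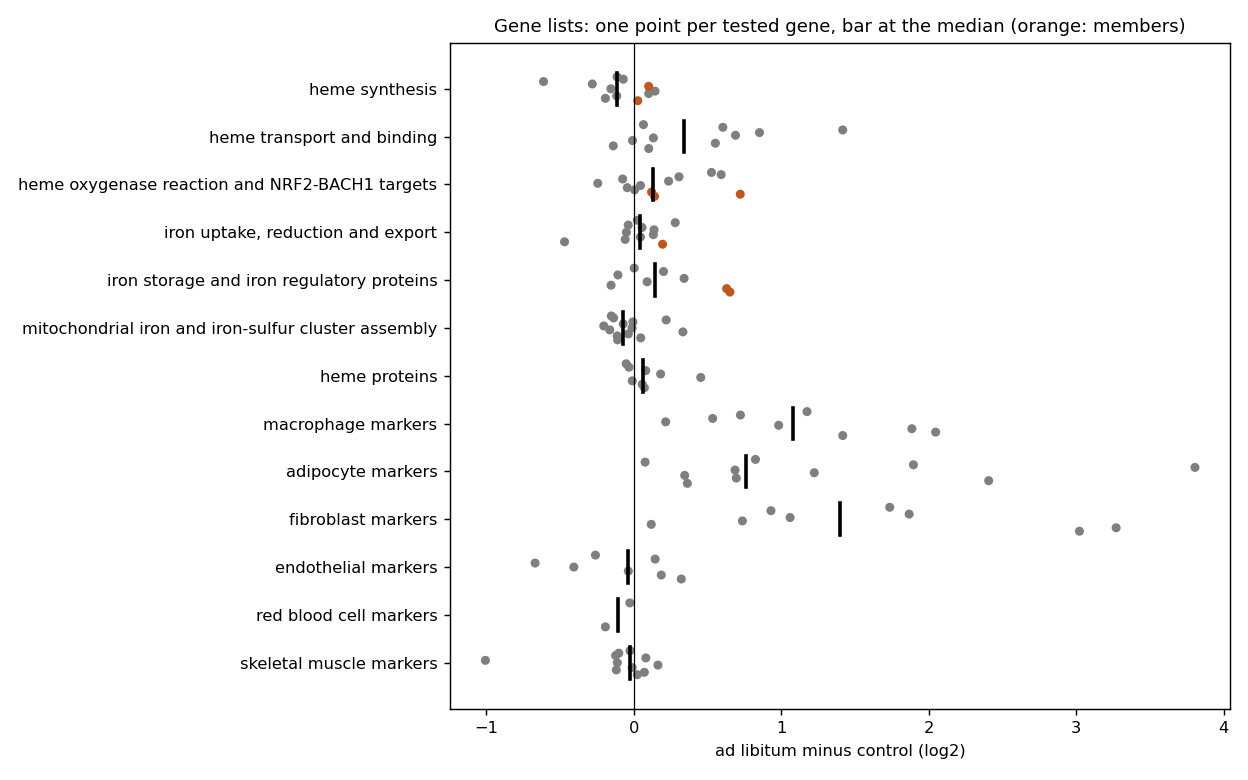
Log2 difference, ad libitum minus control, of every tested gene of the 7 pathway lists and the 6 lists of cell type markers, with a bar at each list's median and members in orange. Pathway medians lie between -0.11 and 0.34, and those of macrophage, adipocyte and fibroblast markers at 1.08, 0.76 and 1.40.

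Over all probe sets, r between arrays ranged from 0.976 to 0.994, and of 36 pairs 0 were identical. Skeletal muscle markers averaged 15.1 to 15.6 on every array, as the tissue label says, and endothelial markers 7.79 to 8.37. The 3' minus 5' value of the GAPDH control probe sets, a sign of RNA quality, was 2.14 to 2.29 in ad libitum and 1.96 to 2.22 in control dogs, and its part in the members' values was not tested.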

How the data were processed

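Muscle RNA of 9 dogs was measured on 1 Affymetrix canine array each. The authors deposited GCRMA values, read here as log2, made by background correction, quantile normalization and summary per probe set, the steps GCRMA stands for, per the submitters' processing notes that name it. No source used here states the log base, which was inferred from the range of 0.652 to 16.6. GCRMA leaves low values uncertain and its quantile step hides a shift common to most genes. Probe sets were named from the platform annotation of the array (29264 with 1 symbol, 439 with several, 13332 unnamed here), and all 9 member symbols matched the RefSeq gene table. After leaving out 111 control probe sets, those above 4 on 4 or more arrays were tested with limma 3.58.1 in R 4.3.3 (two-sided, no covariate, 7 residual and 2.32 prior degrees of freedom), with Benjamini-Hochberg adjustment over all tested probe sets. The limma step was tested on simulated data. The labels name no batch. The named genes were the 9 members, and per pathway list the 3 genes of highest mean and the 1 of lowest p, and for BLVRA, HMOX1 and TFRC the 3 genes most alike over the dogs. The members and lists were chosen with earlier results of these data known. Alternatives were other filters, a floor, cyclic loess, median centring, other variance models, array weights, macrophage or adipocyte markers as a covariate, other probe sets and leaving out each dog.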

Additional observations from a re-analysis of the deposited data

Results flagged for a closer look

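In 86 groups of 4 or 5 dogs checked, 8 held 1 dog far from the others by Dixon's ratio, which chance does in about 1 group in 20. Among the members, control dog 4 stood at 5.30 for TFRC, with the next control dog at 4.05, and control dog 1 stood at 3.49 for FTH1, with the next at 3.86 and all 4 control dogs below the filter. Among the other genes, control dog 3 stood at 10.7 for HJV, with the next at 11.8. Of the ad libitum dogs, dog 7 stood at 3.35 for SLC11A2, dog 2 at 8.24 for NFE2L2, dog 5 at 8.23 for STEAP2, dog 8 at 10.1 for UROD and dog 6 at 13.9 for SDHC. The far values fell on 8 different dogs: the 5 ad libitum dogs once each, and control dogs 1, 3 and 4.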

How the results depend on the processing

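The count of members past an adjusted p of 0.05 was 0 under every alternative run, and also at 0.10. The count over the whole array was 1 with values below log2 4 raised to 4, and 0 to 1 with 1 dog left out (1 without ad libitum dog 8). Of 715 values of 36 genes under alternatives 657 counted as unchanged. For BLVRA and HMOX1, which had no test, this meant a move of less than the SD within groups. For the other genes it meant the same direction and side of the threshold. None of those genes passed the threshold in any setting (lowest adjusted p = 0.107, limma, CD163), so only direction could change. Of 133 medians of the 7 lists 131 moved by less than the SD of the list's mean level within groups, but 7 changed sign, in 4 lists. With 1 dog left out the medians ran from -0.18 to 0.084 for heme synthesis, -0.045 to 0.052 for iron uptake and -0.10 to 0.020 for mitochondrial iron. Iron uptake also turned with either covariate, to -0.013 (macrophage) and -0.038 (adipocyte), and heme proteins to -0.0015 with array weights. Array weights turned ALAS1 to -0.040 and HJV to -0.11. The macrophage covariate gave -0.15 for ALAS1, -0.42 for BLVRB, -0.033 for FECH, -0.35 for TFRC, -0.35 for HEBP1, 0.13 for KEAP1, 0.0072 for NCOA4, -0.034 for PGRMC1, 0.020 for SDHC and -0.25 for STEAP2. The adipocyte covariate gave -0.33 for ALAS1, -0.30 for BLVRB, -0.085 for FECH, 0.12 for CLPX, -0.34 for HEBP1, -0.12 for HJV, 0.14 for KEAP1, 0.015 for NCOA4, 0.030 for SDHC and -0.47 for STEAP2. The mean over a gene's probe sets gave -0.011 for FECH, -0.019 for TFRC, -0.043 for ISCU and -0.0079 for STEAP2, and single other probe sets gave -0.014, -0.016 and -0.14 for FECH and -0.23 for TFRC. With 1 dog left out, differences that turned ran from -0.099 to 0.18 for ALAS1, -0.095 to 0.35 for BLVRB, -0.11 to 0.30 for FECH, -0.26 to 0.015 for CISD1, -0.033 to 0.34 for FBXL5, -0.016 to 0.33 for HEBP1, -0.25 to 0.18 for HJV, -0.030 to 0.12 for ISCU, -0.033 to 0.20 for NFE2L2, -0.087 to 0.096 for SDHC, -0.16 to 0.041 for SLC40A1, -0.18 to 0.49 for STEAP2 and -0.028 to 0.17 for UQCRFS1, and r of HMOX2 with the macrophage markers from -0.33 to 0.054. The cause was not tested in any of these. The count at an unadjusted p under 0.05 ran from 0 to 2. No paired analysis was possible because the dogs of the groups share no number. The low signal of HMOX1, FTH1 and TFRC limits what their values can show.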
